A study of Arabidopsis thaliana with 24 samples.

Results

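The carotenoid pathway genes examined here were 10 loci taken by name from a table of 33681 Arabidopsis genes: *PSY*, *PDS*, *ZDS*, *LCYB*, *LCYE*, *BCH1*, *BCH2*, *VDE*, *LUT1* and *CCD4*. All 10 were present, and all 10 were among the 21596 genes that passed the filter on low values, which kept a gene where 3 or more libraries reached a normalized count of 10. RNA-seq was performed on whole 14-day-old seedlings of 8 genotypes grown in short days, with 3 libraries per genotype: *bcl7a bcl7b brm-1*, *bcl7a bcl7b brm-3*, *brm-1*, *brm-3*, *bcl7a bcl7b*, *bcl7b*, *bcl7a* and WT. All were in the background labelled CoL-0. *BRM* is the ATPase of a SWI/SNF chromatin-remodeling complex, and *BCL7A* and *BCL7B* are subunits of that complex. The mutants are T-DNA insertion lines, each gene being represented by a single insertion allele except *BRM*, for which *brm-1* is a null allele and *brm-3* a hypomorphic one. The 10 loci are on chromosomes 1, 3, 4 and 5. The question for these genes is how their transcripts differ when *BRM*, *BCL7A* and *BCL7B* are lost alone or together. The time of day of harvest is not given in the sources used here. The study's methods describe the libraries of a genotype as biological replicates, and the labels do not say what separated them.

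Carotenoids are plastid pigments built from isoprenoid precursors of the plastid MEP pathway. *PSY* (phytoene synthase) makes phytoene, *PDS* (phytoene desaturase) and *ZDS* (zeta-carotene desaturase) desaturate it towards lycopene, and the lycopene cyclases *LCYE* and *LCYB* close its ends into epsilon and beta rings. *LCYE* with *LCYB* leads to alpha-carotene and, through the hydroxylase *LUT1*, to lutein, the main carotenoid of leaves. *LCYB* alone leads to beta-carotene, which the paralogous hydroxylases *BCH1* and *BCH2* turn into zeaxanthin. *VDE* (violaxanthin de-epoxidase) forms zeaxanthin from violaxanthin in strong light, and *CCD4* (carotenoid cleavage dioxygenase 4) breaks carotenoids down.

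The deposited normalized counts summed to 16.55 to 22.1 M in the 15 libraries of *bcl7a bcl7b brm-1*, *bcl7a bcl7b brm-3*, *brm-1*, *brm-3* and *bcl7a bcl7b*, and to 29.86 to 40.94 M in the 9 libraries of *bcl7b*, *bcl7a* and WT. The 10 highest genes took 7.87% to 13.7% of the sum in the first set and 26.8% to 33.6% in the second. Estimated depth did not separate the sets, at 21.2 to 28.1 M and 19.5 to 25.7 M fragments (M, mega). This difference in scale and the 5 changed genotypes coincide, so that in comparisons with WT, *bcl7a* or *bcl7b* they cannot be told apart, and comparisons among the 5 genotypes lie within a single set. Replicates 1 and 3 of *bcl7a bcl7b* differed by an amount below sampling noise, and their mean entered as 1 sample. The squared difference between them was 0.144 of the counting variance, against 13.02 to 148.7 in the 23 other replicate pairs. The targeted genes followed the labels where they could be read: no *BCL7B* transcript was listed in any *bcl7a bcl7b brm-1*, *bcl7a bcl7b* or *bcl7b* library, nor in 2 of 3 *bcl7a bcl7b brm-3* libraries, and *BRM* averaged 29.4 ± 13.1 in *bcl7a bcl7b brm-1* and 37.1 ± 7.01 in *brm-1*, against 213.5 ± 122.7 in WT (SD, n = 3 each). *BRM* was at 134.8 to 172.7 in *brm-3* and 114.7 to 163.4 in *bcl7a bcl7b brm-3*. Both lie inside the 111.0 to 349.5 of WT, so *BRM* does not check the *brm-3* label. *BCL7A* was at 0 to 30.1 in WT, which overlaps the 0 to 4.42 in *bcl7a*, so *BCL7A* does not check the *bcl7a* label. It averaged 2.95 ± 2.63 in *bcl7a bcl7b brm-1* against 94.2 ± 11.1 in *brm-1*, was listed at 0 in *bcl7a bcl7b brm-3* against 72.0 ± 19.3 in *brm-3* (SD, n = 3 each), and ranged from 3.06 to 12.4 in *bcl7a bcl7b* against 21.5 to 30.6 in *bcl7b*. Summed markers of leaf mesophyll ranged from 195800 to 565200 in the 5 genotypes, against 556500 to 739100 in WT. They were 402300 to 503100 in *bcl7b* and 501800 to 575300 in *bcl7a*. Those of root hair and endodermis ranged from 257.7 to 1079 in the 5 genotypes, against 1464 to 1825 in WT. They were 1053 to 1357 in *bcl7b* and 1182 to 1929 in *bcl7a*. The sums do not speak for every marker. In *bcl7a bcl7b brm-3*, 1 leaf marker rose and 7 fell, and 1 root marker rose and 5 fell. In *brm-1*, 1 leaf marker rose and 3 fell, and 2 root markers rose and 3 fell. In *brm-3*, 1 leaf marker rose and 4 fell, and 4 root markers fell. In *bcl7a bcl7b brm-1*, 1 leaf marker rose and 3 fell, and 1 root marker rose and 3 fell. In *bcl7a bcl7b*, 1 leaf marker rose and 1 fell, and 1 root marker fell. In *bcl7b* and *bcl7a* none was called. Both flower markers were called higher in *bcl7a bcl7b brm-3*, where their sum was 6.54 to 87.0, against 0 to 11.8 in WT. No marker of the leaf or root list (8 genes each) was at 0 throughout a genotype, and the part of these shifts in the results for carotenoid genes was not tested. In bulk seedlings, fewer cells of a type and less RNA per cell cannot be told apart.

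To show the sequence next to the genes that changed most, and to the paralogue of *BCH2* that did not follow it, the 250 bases before the annotated start are printed for *PSY*, *LCYE*, *LUT1*, *BCH2*, *CCD4* and *BCH1*. They were read from the TAIR10.1 assembly and its RefSeq annotation, 5′ to 3′ on the strand of the gene. Capitals mark every match to a G-box (CACGTG), an I-box (GATAAG), the ATCTA core bound by *RAP2.2*, a CCA1 site (AAAAATCT) or an evening element (AAAATATCT), on either strand.
PSY, chr5:5662998-5663247, minus strand: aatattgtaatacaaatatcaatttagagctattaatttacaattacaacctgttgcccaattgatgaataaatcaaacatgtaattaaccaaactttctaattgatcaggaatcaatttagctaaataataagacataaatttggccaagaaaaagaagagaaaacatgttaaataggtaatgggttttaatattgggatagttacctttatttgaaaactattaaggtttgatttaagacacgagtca
LCYE, chr5:23076870-23077119, plus strand: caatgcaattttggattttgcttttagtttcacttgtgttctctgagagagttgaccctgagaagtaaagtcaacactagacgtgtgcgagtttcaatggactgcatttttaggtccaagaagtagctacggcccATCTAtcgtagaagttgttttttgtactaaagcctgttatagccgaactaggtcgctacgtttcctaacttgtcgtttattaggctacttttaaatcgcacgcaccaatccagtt
LUT1, chr3:19692507-19692756, plus strand: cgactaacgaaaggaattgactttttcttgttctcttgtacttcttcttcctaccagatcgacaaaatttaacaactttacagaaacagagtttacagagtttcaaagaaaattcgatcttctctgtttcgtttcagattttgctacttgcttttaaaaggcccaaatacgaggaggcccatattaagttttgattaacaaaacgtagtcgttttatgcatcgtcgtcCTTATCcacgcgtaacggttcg
BCH2, chr5:21337127-21337376, minus strand: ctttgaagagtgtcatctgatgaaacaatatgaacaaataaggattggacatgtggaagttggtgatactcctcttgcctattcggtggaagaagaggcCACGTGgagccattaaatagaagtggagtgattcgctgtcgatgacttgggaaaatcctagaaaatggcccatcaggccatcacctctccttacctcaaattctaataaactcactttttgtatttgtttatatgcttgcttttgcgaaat
CCD4, chr4:10481369-10481618, plus strand: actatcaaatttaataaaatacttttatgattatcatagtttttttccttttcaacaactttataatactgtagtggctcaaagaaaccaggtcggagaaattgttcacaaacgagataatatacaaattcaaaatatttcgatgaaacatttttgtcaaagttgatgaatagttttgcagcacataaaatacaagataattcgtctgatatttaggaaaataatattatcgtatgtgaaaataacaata
BCH1, chr4:13096050-13096299, minus strand: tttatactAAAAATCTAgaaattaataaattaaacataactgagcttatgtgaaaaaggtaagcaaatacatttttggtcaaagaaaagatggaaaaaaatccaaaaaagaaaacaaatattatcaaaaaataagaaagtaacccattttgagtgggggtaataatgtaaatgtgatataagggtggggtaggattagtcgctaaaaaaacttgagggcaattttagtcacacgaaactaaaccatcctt
Among the 10 genes, *BCH2* held a G-box, which began 151 bases before the start, and *LUT1* an I-box on the opposite strand. A G-box was present in 6.49% and an I-box in 12.3% of the 27437 protein-coding promoters of the same length. The *RAP2.2* core was found in 4 genes, namely *PDS*, *ZDS*, *LCYE* and *BCH1*, and in 49.2% of all promoters. In *BCH1* it overlapped the CCA1 site by all but its last base, and CCA1 sites were present in 6.69% of all promoters. None of the 10 held an evening element, which 2.36% of all promoters did, and the windows of *PSY* and *CCD4* held no match to any of the 5 motifs. These matches describe the sequence and are not shown to be binding sites.

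The gene models limit how well some members can be counted. The transcripts of *BCH2* and *BCH1*, whose coding sequences were 83.1% identical over 888 aligned bases, shared only 3 stretches of 31 bases, 0.237% of those in *BCH2*. The coding sequences of *LCYE* and *LCYB* were 56.2% identical and shared none. *LUT1* was the most exposed member, since 38.7% of its 31-base stretches also occurred in the downstream gene AT3G53140. That gene is annotated on the same strand and was listed at 0 in *brm-1* and WT libraries. The level of *LUT1* and its changes between genotypes are therefore uncertain. Opposite-strand neighbours shared 15.1% of those of *LCYB* and 16.7% of those of *VDE*, and strandedness is not given in the sources used here. *PDS* and *CCD4* shared none with any other gene.

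Per kilobase of the longest annotated transcript, the order of levels differed between *brm-1* and WT. In *brm-1*, *PSY* stood highest at 866 normalized counts per kilobase and *BCH2* lowest at 7.83, with *CCD4* in the middle at 209. In WT, *CCD4* stood highest at 2522 normalized counts per kilobase, with *BCH1* next at 430.3, and *LUT1* and *LCYE* stood lowest at 44.0 and 56.7. The order of these lowest genes turns round without division by length (147.5 ± 53.9 for *LUT1* and 120.8 ± 29.6 for *LCYE*), as the longest *LUT1* transcript runs over AT3G53140. *LCYE* stood above *LCYB* in *brm-1*, at 219 and 171 per kilobase, and below it in WT, at 56.7 and 377. The methods name TPM values as the input to normalization, and if so, length had been divided out before, so levels per kilobase are uncertain.

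**Figure D1:**
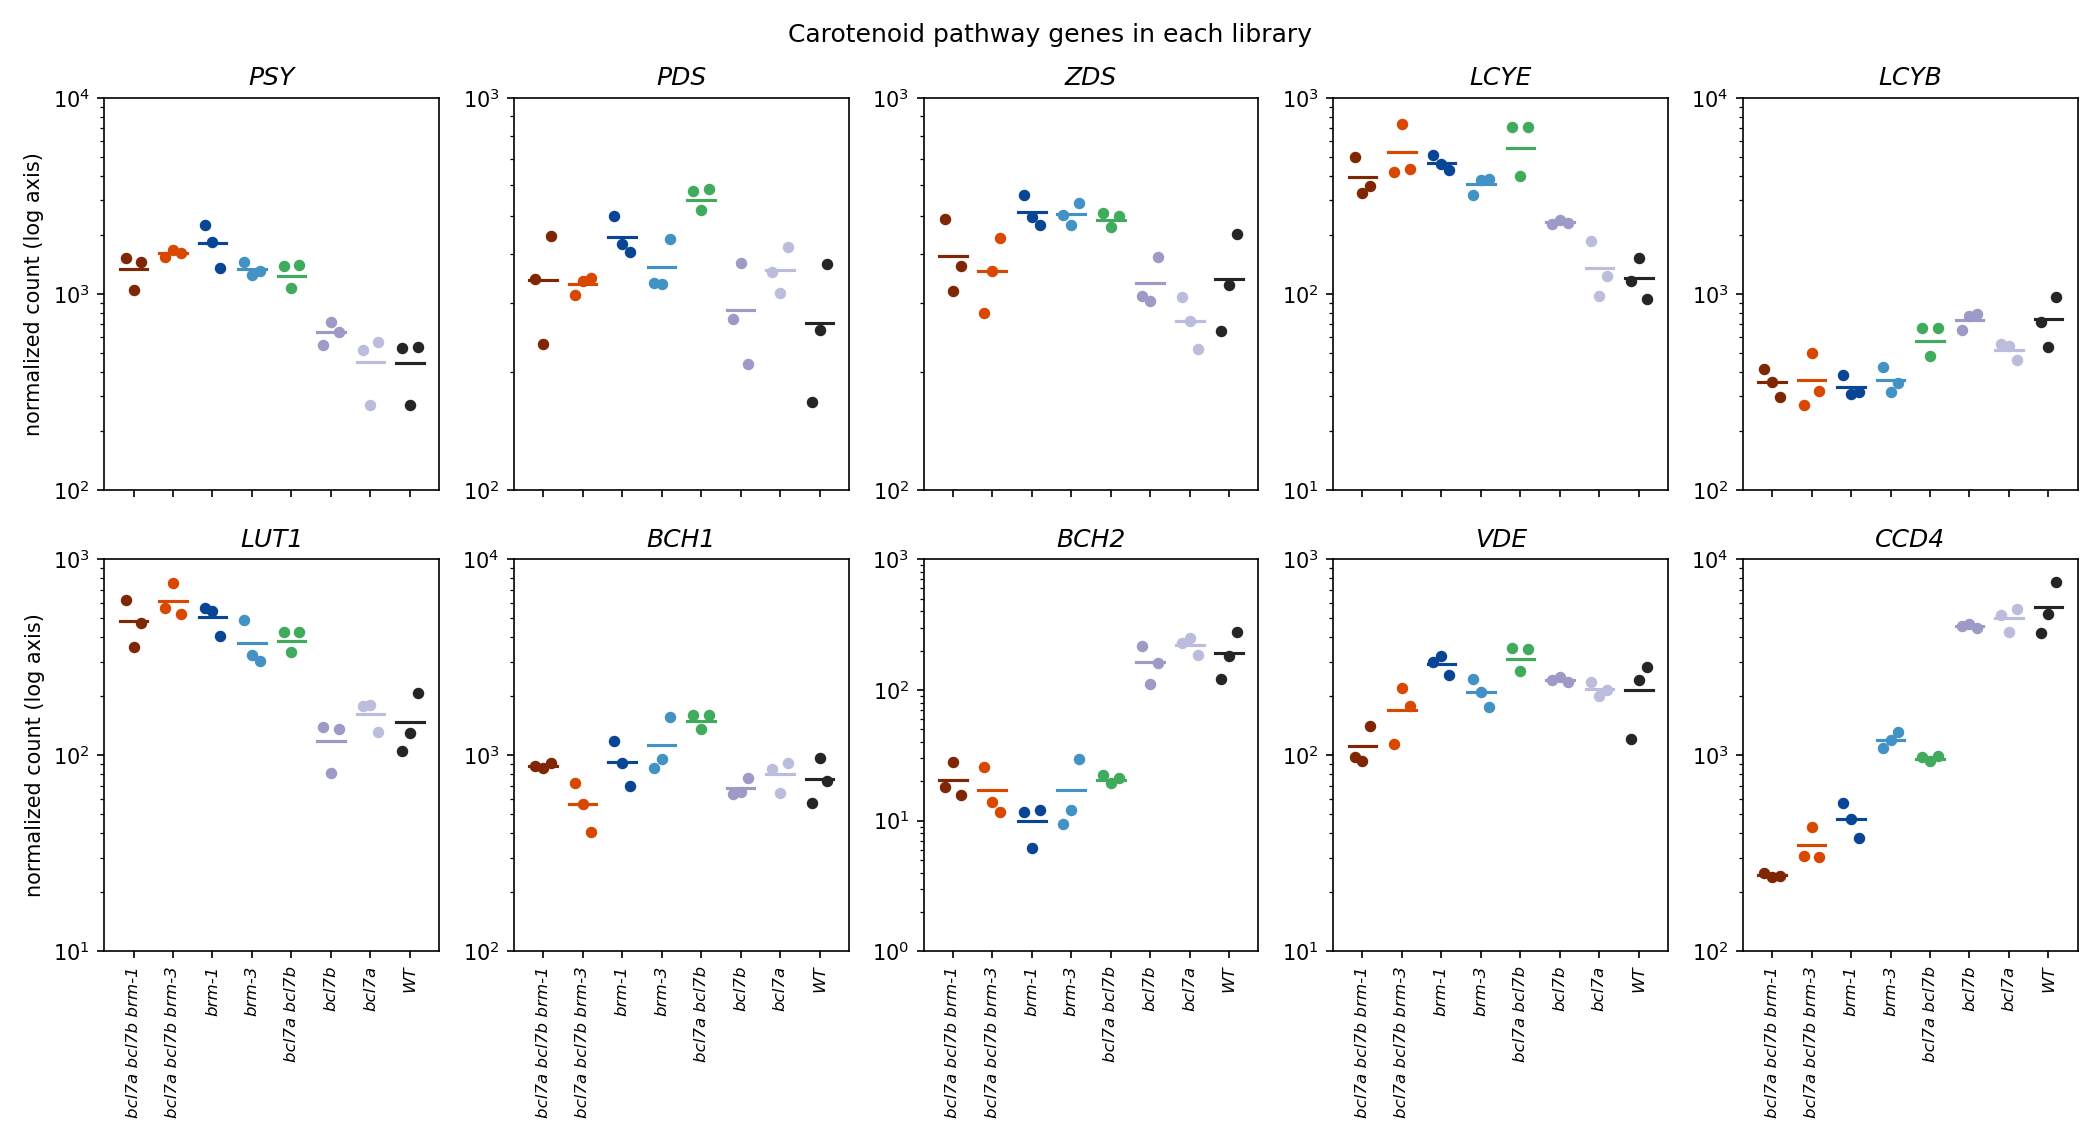
Normalized counts of the 10 genes (log axes, 1 panel per gene) in the 3 libraries of each genotype, with mutants left of WT. Points are libraries and bars are means, in which replicates 1 and 3 of *bcl7a bcl7b* count as 1 sample. The 15 libraries of the 5 genotypes on the left lie above the 9 of *bcl7b*, *bcl7a* and WT for *PSY*, *LCYE* and *LUT1*, and below them for *BCH2* and *CCD4*.

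Against WT, 5 genes changed in each of the 4 genotypes with a *brm* allele and in *bcl7a bcl7b*. *PSY*, *LCYE* and *LUT1* rose, and *BCH2* and *CCD4* fell, in *bcl7a bcl7b brm-1*, *bcl7a bcl7b brm-3*, *brm-1*, *brm-3* and *bcl7a bcl7b*. For these 5 genes the 15 libraries of the 5 genotypes did not overlap the 9 of *bcl7b*, *bcl7a* and WT. The split in scale lies between the same sets. The share of all genes that separated in this way was not counted, nor the share called in the same direction in all 5 comparisons. Neither pattern is therefore shown to be particular to these genes. *LCYB* fell in the 4 genotypes with a *brm* allele, and *PDS*, *ZDS*, *BCH1* and *VDE* passed the thresholds in single genotypes or in a pair of them. These 5 comparisons share the WT libraries. Calls needed an adjusted p (limma, Benjamini-Hochberg) under 0.05 together with a log2 fold change beyond 0.6 in either direction, with fold changes taken on the log2(normalized count + 1) scale.

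In *bcl7a bcl7b brm-1*, 3 members rose and 4 fell, where 26.9% of all genes tested rose and 18.3% fell. In *bcl7a bcl7b brm-3*, 3 rose and 3 fell, against 30.8% and 22.8% of all genes. In *brm-1*, 5 rose and 3 fell, against 28.9% and 19.2%. In *brm-3*, 3 rose and 3 fell, against 23.5% and 16.5%. In *bcl7a bcl7b*, 5 rose and 2 fell, against 11.9% and 10.2%. In the triple mutants the 3 risers among 10 are close to the share of risers among all genes, while in *bcl7a bcl7b* the 5 risers are a larger share than that of all genes. The median log2 fold change of the 10 was 0.23, -0.11, 0.56, 0.54 and 0.80 in the same 5 genotypes, beside 0.29, 0.30, 0.36, 0.27 and 0.19 over all genes. The medians hide changes in opposite directions within the pathway.

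*PSY* (AT5G17230), which commits precursors to carotenoids, rose 2.86- to 4.17-fold. Its normalized counts were 1535, 1045 and 1451 in *bcl7a bcl7b brm-1*, 1536, 1670 and 1624 in *bcl7a bcl7b brm-3*, 2258, 1851 and 1351 in *brm-1*, 1451, 1244 and 1310 in *brm-3*, and 1384, 1071 and 1399 in *bcl7a bcl7b*, against 529, 271.5 and 538 in WT. Every library of the 5 genotypes lay above every WT library, and the lowest of them, *bcl7a bcl7b brm-1* replicate 2, was still far above the highest WT library. The log2 fold change was largest in *brm-1*, at 2.06 ± 0.26 (SE, adjusted p = 1.21e-06, limma), and smallest in *bcl7a bcl7b*, at 1.52 ± 0.30 (adjusted p = 0.000817). Most pairs of the 5 genotypes overlapped, and none of the 7 comparisons among them passed the thresholds for *PSY*.

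*PDS* (AT4G14210) and *ZDS* (AT3G04870), the next steps, changed less. *PDS* was higher in *bcl7a bcl7b*, at 578, 519 and 586 against 168, 256 and 377 in WT, without overlap (log2 fold change 1.12 ± 0.30, adjusted p = 0.00976), and in *brm-1*, at 499, 423 and 405, likewise without overlap (0.80 ± 0.27, adjusted p = 0.0165). In the other mutants its log2 fold changes were 0.39, 0.40 and 0.53 for *bcl7a bcl7b brm-1*, *bcl7a bcl7b brm-3* and *brm-3*, short of the threshold. With every library rescaled to the same total they were 1.31, 1.42 and 1.43 (adjusted p = 0.000363, 0.00013 and 0.000169), where the medians of all genes were 1.17, 1.26 and 1.11. *ZDS* passed in *brm-1*, at 566, 497 and 473 against 254, 332.5 and 449.9 in WT (log2 fold change 0.60 ± 0.22, adjusted p = 0.0263), a value on the threshold itself. Both *brm-1* calls were fragile: that of *PDS* was lost without WT replicate 1 or *brm-1* replicate 1 (log2 fold change 0.50 to 0.71, adjusted p = 0.0656 to 0.126), and that of *ZDS* without WT replicate 1 or 2 or *brm-1* replicate 1 or 2 (0.40 to 0.62, adjusted p = 0.0525 to 0.158).

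At the branch after lycopene, the cyclases moved in opposite directions in the genotypes with a *brm* allele. *LCYE* (AT5G57030) rose 3.03- to 4.48-fold, with 498.5, 326 and 357.5 normalized counts in *bcl7a bcl7b brm-1*, 420.0, 739 and 432 in *bcl7a bcl7b brm-3*, 512, 460.0 and 427 in *brm-1*, 320.5, 380.2 and 386 in *brm-3*, and 711, 401 and 712 in *bcl7a bcl7b*, against 116, 152 and 93.8 in WT. No library of the 5 genotypes came near the WT range, although the spread was wide in *bcl7a bcl7b*, where replicate 2 was far below the other pair. The log2 fold change was largest in *bcl7a bcl7b*, at 2.16 ± 0.31 (adjusted p = 3.1e-05), and smallest in *brm-3*, at 1.60 ± 0.27 (adjusted p = 6.83e-05).

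*LCYB* (AT3G10230), the cyclase used on both branches, fell 1.99- to 2.15-fold in the *brm* genotypes. Its normalized counts were 413, 354 and 298.5 in *bcl7a bcl7b brm-1*, 270.4, 499 and 320.1 in *bcl7a bcl7b brm-3*, 385, 309.5 and 315 in *brm-1*, and 426, 315 and 351 in *brm-3*, against 718, 538 and 967 in WT. All 12 *brm* libraries lay below the lowest WT library, with *bcl7a bcl7b brm-3* replicate 2 closest to it. The log2 fold changes ranged from -1.10 ± 0.23 in *brm-1* (adjusted p = 0.000428) to -0.99 ± 0.23 in *brm-3* (adjusted p = 0.00151). In *bcl7a bcl7b* the values were 668, 485 and 672, which overlapped WT (-0.34 ± 0.26, adjusted p = 0.37). The 4 calls for *LCYB* were lost when every library was rescaled to the same total, where the log2 fold changes were -0.27 to -0.02 (adjusted p = 0.377 to 0.955).

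*LUT1* (AT3G53130), the epsilon-ring hydroxylase that finishes lutein, rose with *LCYE*. It had 617, 357 and 473 normalized counts in *bcl7a bcl7b brm-1*, 561, 757 and 524 in *bcl7a bcl7b brm-3*, 565, 547 and 404 in *brm-1*, 491, 325 and 304 in *brm-3*, and 425.3, 338 and 425.4 in *bcl7a bcl7b*, against 104.5, 130.0 and 208 in WT. All 15 libraries were above all 3 WT libraries. Part of the *LUT1* sequence is shared with AT3G53140, and how much of the rise is its own was not tested. The log2 fold change was largest in *bcl7a bcl7b brm-3*, at 2.09 ± 0.29 (adjusted p = 2.11e-06), and smallest in *brm-3*, at 1.36 ± 0.29 (adjusted p = 0.000605).

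The beta-ring hydroxylases, *BCH1* and *BCH2*, separated. *BCH2* (AT5G52570) fell to low levels, with 18.0, 28.1 and 15.6 normalized counts in *bcl7a bcl7b brm-1*, 25.8, 13.8 and 11.5 in *bcl7a bcl7b brm-3*, 11.6, 6.20 and 12.01 in *brm-1*, 9.44, 12.1 and 29.6 in *brm-3*, and 22.4, 19.4 and 21.1 in *bcl7a bcl7b*, against 120.3, 183 and 275.5 in WT. The highest value of the 5 genotypes was 29.6, against a lowest value of 120.3 in WT. Since 1 fragment was worth 0.646 to 0.895 normalized counts in these 15 libraries, the values rest on few fragments, and their errors are the widest of the 10 genes. The log2 fold change was -4.12 ± 0.50 in *brm-1*, a 17.4-fold fall (adjusted p = 6.08e-07), and -3.09 ± 0.56 in *bcl7a bcl7b*, where the fall was 8.51-fold (adjusted p = 0.000426).

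*BCH1* (AT4G25700) did not follow its paralogue. It had 881, 857 and 911 normalized counts in *bcl7a bcl7b brm-1*, 722, 563 and 406 in *bcl7a bcl7b brm-3*, 1178, 913 and 695 in *brm-1*, and 864, 955 and 1559 in *brm-3*, against 572, 965 and 738 in WT, and each of these groups overlapped WT. It passed the thresholds against WT only in *bcl7a bcl7b*, at 1602, 1368 and 1611, all above WT (log2 fold change 0.998 ± 0.272, adjusted p = 0.0111). Its log2 fold changes in the other 4 genotypes ran from -0.43 in *bcl7a bcl7b brm-3* to 0.55 in *brm-3*.

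*VDE* (AT1G08550) differed from WT in *bcl7a bcl7b brm-1*, where it had 98.2, 93.6 and 141 normalized counts against 121, 243 and 280.5 in WT. These groups overlapped through WT replicate 1. The log2 fold change was -0.88 ± 0.29 (adjusted p = 0.0154), and the call was lost without WT replicate 2 or 3 or *bcl7a bcl7b brm-1* replicate 1 or 2 (-0.81 to -0.65, adjusted p = 0.0538 to 0.0915). In this triple mutant the seed storage genes stood apart, with 5271 normalized counts of CRU3 in replicate 1 and 279 and 202 in the other replicates, against 0, 0 and 17.8 in WT, and the part of this in the *VDE* value was not tested. Rescaling every library to the same total turned the *VDE* value to 0.03. *VDE* averaged 171 ± 53.8 in *bcl7a bcl7b brm-3*, 292 ± 33.1 in the *brm-1* null, 211 ± 34.0 in *brm-3* (SD, n = 3 each) and 310 ± 56.9 in *bcl7a bcl7b* (SD, n = 2), against 215 ± 83.4 in WT (SD, n = 3), and none of these passed the thresholds.

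*CCD4* (AT4G19170), the only cleavage enzyme among the 10, had the smallest adjusted p in each of the 5 comparisons. Its normalized counts were 252, 240.0 and 242 in *bcl7a bcl7b brm-1*, 307, 430.1 and 302 in *bcl7a bcl7b brm-3*, 568, 473 and 379 in *brm-1*, 1092, 1194 and 1320 in *brm-3*, and 976.5, 937 and 996 in *bcl7a bcl7b*, against 4224, 5231 and 7652 in WT. The genotypes formed an order in which *bcl7a bcl7b brm-1* lay below *bcl7a bcl7b brm-3* and *brm-1*, whose libraries overlapped each other, and these below *bcl7a bcl7b* and *brm-3*. Not every step of this order was tested, and *brm-3* and *bcl7a bcl7b* did not differ past the thresholds. The log2 fold changes against WT were -4.49 ± 0.19, a 22.5-fold fall, in *bcl7a bcl7b brm-1* (adjusted p = 6.53e-14), -4.01 ± 0.19 in *bcl7a bcl7b brm-3* (adjusted p = 3.36e-13), -3.56 ± 0.19 in *brm-1* (adjusted p = 5.35e-12), -2.21 ± 0.19 in *brm-3* (adjusted p = 1.07e-08) and -2.52 ± 0.21 in *bcl7a bcl7b* (adjusted p = 6.42e-08). It was the only member whose *bcl7a bcl7b* call held when that genotype and WT were fitted alone. The 6 other *bcl7a bcl7b* calls then had adjusted p from 0.0548 to 0.192 (limma, with 2 and 3 samples).

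**Figure D2:**
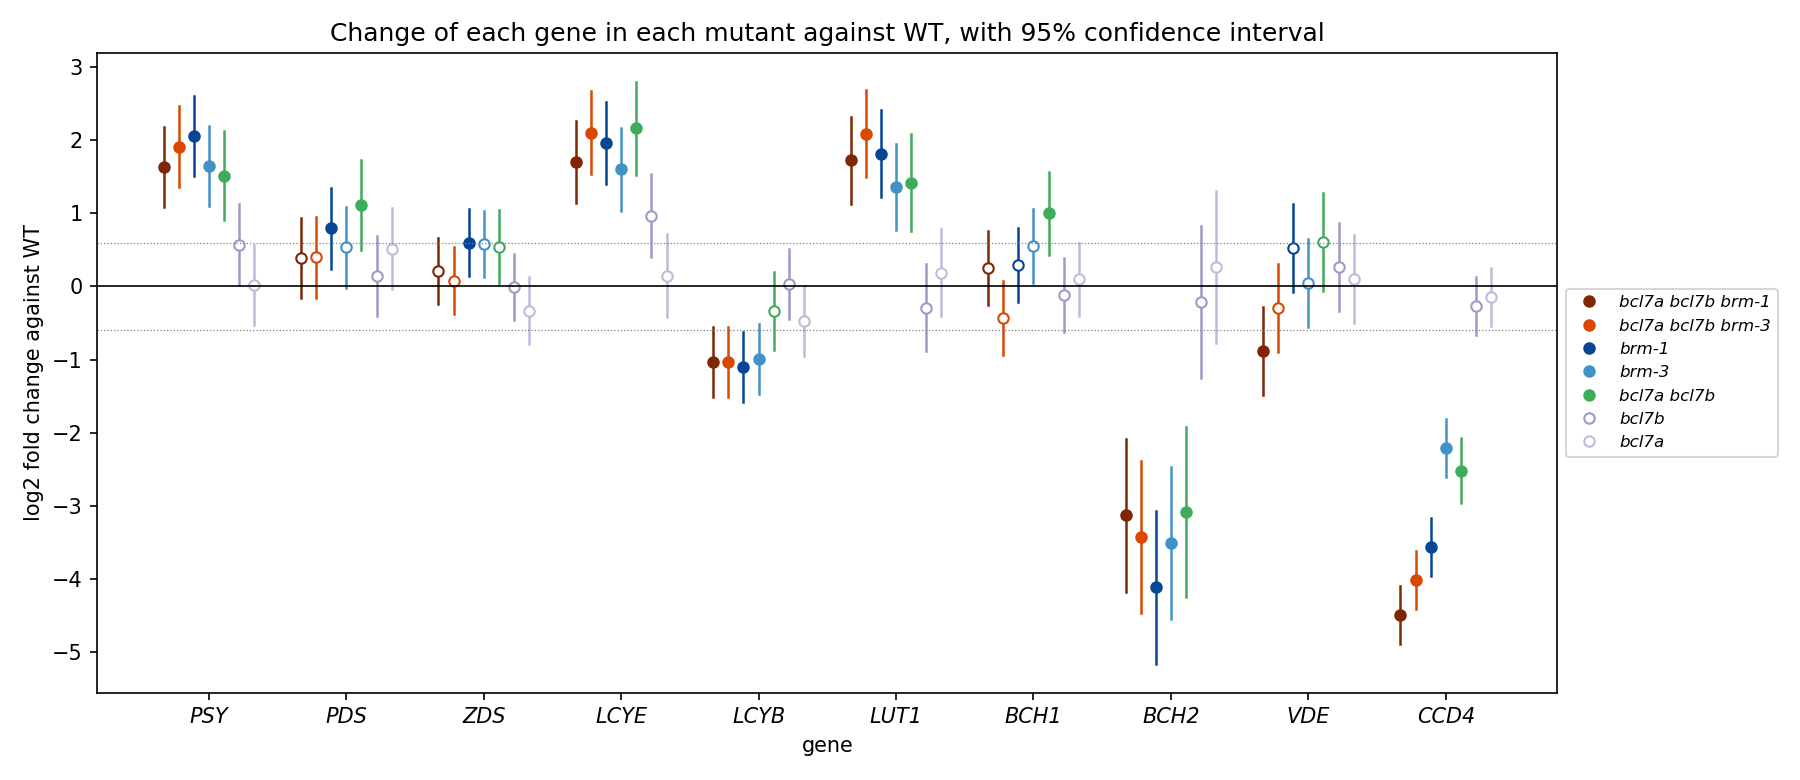
Log2 fold change of each gene against WT (vertical axis, log2(normalized count + 1) scale) in each of 7 mutants, with 95% confidence intervals from limma. Filled points passed both thresholds, open points did not, and dotted lines mark a log2 fold change of 0.6 in either direction. *PSY*, *LCYE* and *LUT1* are filled above 0 and *BCH2* and *CCD4* below 0 in the 5 leftmost mutants of each gene, and no point of *bcl7b* or *bcl7a* is filled.

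In the single bcl7 mutants no member passed the thresholds. In *bcl7b*, 0 of 10 were called (limma), 2 had an unadjusted p under 0.05, and 1.5% of all genes tested rose and 0.574% fell. *LCYE* was the closest, with 226.5, 239 and 232 normalized counts in *bcl7b*, above the 116, 152 and 93.8 in WT without overlap (log2 fold change 0.97 ± 0.27, adjusted p = 0.0659). In *bcl7a*, 0 of 10 were called, none had an unadjusted p under 0.05, and 0.301% of all genes rose and 0.0509% fell. *BCH2* had 230.2, 249 and 186 normalized counts in *bcl7a*, inside the WT range, and *CCD4* had 5193, 4268 and 5598, likewise inside it. The contrast of *bcl7a bcl7b* with the sum of the single mutants was also tested. In it, 3 of 10 members departed from additivity on the log2 scale, against 6.01% of all genes in either direction. Only *bcl7a bcl7b* lies in the set with low sums here, so these departures and the difference in scale cannot be told apart. With every library rescaled to the same total, 7 of 10 were called, and the median of all genes was 0.608 in place of -0.032. *CCD4* departed by -2.10 ± 0.29 (adjusted p = 0.000169), *BCH2* by -3.15 ± 0.75 (adjusted p = 0.0152) and *LUT1* by 1.52 ± 0.43 (adjusted p = 0.0375). Without *bcl7a bcl7b* replicate 2 the *BCH2* value was -3.07 with an adjusted p of 0.0676, and the *LUT1* call was lost without that library or without WT replicate 3, *bcl7a* replicate 1 or 3, or *bcl7b* replicate 2 (1.24 to 1.68, adjusted p = 0.0516 to 0.101).

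Ratios of a pair of genes within a library do not depend on how the libraries were scaled. The *LCYE* to *LCYB* ratio averaged 1.11 ± 0.16 in *bcl7a bcl7b brm-1*, 1.46 ± 0.10 in *bcl7a bcl7b brm-3*, 1.39 ± 0.08 in the *brm-1* null, 1.02 ± 0.24 in *brm-3* and 0.94 ± 0.17 in *bcl7a bcl7b*, against 0.18 ± 0.09 in WT (SD, n = 3, and 2 for *bcl7a bcl7b*). The lowest value in the 5 genotypes was 0.752, in *brm-3*, and the highest in WT was 0.283. The *BCH2* to *BCH1* ratio averaged 0.0234 ± 0.0083, 0.0295 ± 0.0057, 0.0113 ± 0.0054, 0.0142 ± 0.0042 and 0.0139 ± 0.00048 in the same order of genotypes, against 0.258 ± 0.101 in WT. The *PSY* to *CCD4* ratio averaged 5.48 ± 0.98, 4.75 ± 0.78, 3.82 ± 0.22, 1.12 ± 0.18 and 1.28 ± 0.19, against 0.0825 ± 0.0381 in WT. None of the 3 ratios overlapped between the 5 genotypes and WT, and no test was run on them. Each pair holds a gene whose own values already separated these libraries, so the ratios are not separate support.

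**Figure D3:**
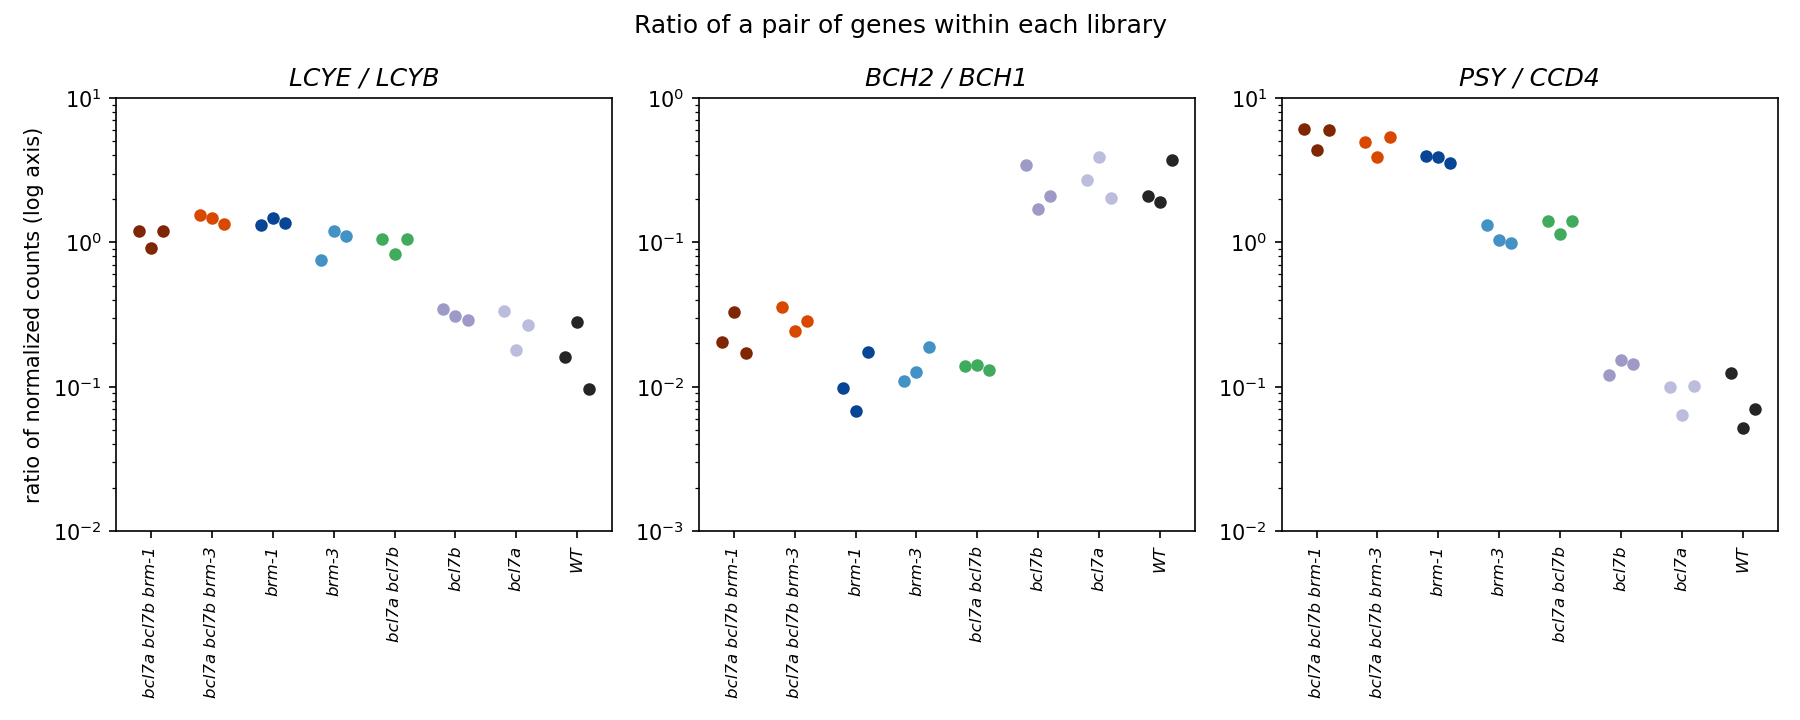
Ratios of normalized counts within each library (log axes) for *LCYE* over *LCYB*, *BCH2* over *BCH1* and *PSY* over *CCD4*, with mutants left of WT. Points are libraries. The 5 genotypes on the left lie above *bcl7b*, *bcl7a* and WT for the first and last ratio and below them for the middle one.

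Adding *bcl7a bcl7b* to a *brm* allele, within the set of libraries with low sums, lowered a few members and raised none past the thresholds. In each comparison the share of members called, 2 of 10, was no larger than that of all genes in either direction. Among all 21596 genes tested, 3309 were lower against *brm-1* and 2622 against *brm-3*. Against *brm-1*, the *bcl7a bcl7b brm-1* triple mutant was lower in *CCD4* (-0.93 ± 0.19, adjusted p = 0.000659) and *VDE* (-1.41 ± 0.29, adjusted p = 0.00067), 2 of 10 members where 29.5% of all genes changed in either direction. *VDE* had 98.2, 93.6 and 141 normalized counts in *bcl7a bcl7b brm-1* and 297, 322 and 256 in *brm-1*, without overlap. Against *brm-3*, the *bcl7a bcl7b brm-3* triple mutant was lower in *CCD4* (-1.81 ± 0.19, adjusted p = 5.91e-07) and *BCH1* (-0.99 ± 0.24, adjusted p = 0.00497), 2 of 10 members where 21.2% of all genes changed. The *BCH1* call was lost without *brm-3* replicate 3, its highest library (-0.73, adjusted p = 0.0524). *PSY*, *LCYE* and *BCH2* did not pass in either comparison. Their 95% intervals reached from -0.97 to 0.12, -0.83 to 0.30 and -0.06 to 2.03 against *brm-1*, and from -0.28 to 0.82, -0.06 to 1.07 and -0.96 to 1.13 against *brm-3*.

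Adding a *brm* allele to *bcl7a bcl7b* also lowered members. The shares of members called were not far above those of all genes in either direction. Among all 21596 genes tested, 2358 were lower when *brm-1* was added and 3258 when *brm-3* was added. Against *bcl7a bcl7b*, *bcl7a bcl7b brm-1* was lower in *CCD4* (-1.97 ± 0.21, adjusted p = 5.26e-07), *VDE* (-1.49 ± 0.32, adjusted p = 0.00158) and *BCH1* (-0.75 ± 0.27, adjusted p = 0.0486), 3 of 10 members where 23.7% of all genes changed. Against *bcl7a bcl7b*, *bcl7a bcl7b brm-3* was lower in *CCD4* (-1.49 ± 0.21, adjusted p = 1.9e-05), *BCH1* (-1.43 ± 0.27, adjusted p = 0.000365), *VDE* (-0.90 ± 0.32, adjusted p = 0.04) and *LCYB* (-0.70 ± 0.26, adjusted p = 0.0454), 4 of 10 where 28.9% changed. Some of these calls rest on single libraries. Without any 1 *bcl7a bcl7b brm-1* library or *bcl7a bcl7b* replicate 2, the adjusted p of *BCH1* in *bcl7a bcl7b brm-1* was 0.0846 to 0.103 (-0.86 to -0.73). Without *bcl7a bcl7b brm-3* replicate 1 or 3, that of *LCYB* was 0.111 to 0.184 (-0.63 to -0.51), and without either of these or *bcl7a bcl7b* replicate 2, that of *VDE* was 0.0556 to 0.179 (-1.08 to -0.63).

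Between the *brm* alleles and *bcl7a bcl7b*, *CCD4* was again the member that differed, and the shares of members called were near or below those of all genes. Its log2 difference in *brm-1* against *brm-3* was -1.36 ± 0.19 (adjusted p = 5.54e-05), the null allele being 379 to 568 and the hypomorphic allele 1092 to 1320 normalized counts, and it was the only 1 of 10 members called where 9.94% of all genes changed. Against *bcl7a bcl7b*, *brm-1* was lower in *CCD4* (-1.04 ± 0.21, adjusted p = 0.00122) and in *LCYB* (-0.77 ± 0.26, adjusted p = 0.0368), where 21.4% of all genes changed. The *LCYB* call was lost without *brm-1* replicate 2 or 3 (-0.72 to -0.71, adjusted p = 0.0887 to 0.106). Against *bcl7a bcl7b*, *brm-3* differed in 0 of 10 members (limma), with 1 at an unadjusted p under 0.05, where 11.3% of all genes changed. The 95% interval of the *brm-3* minus *bcl7a bcl7b* difference was -0.13 to 0.76 for *CCD4*, -0.49 to 0.74 for *PSY* and -1.59 to 0.74 for *BCH2*.

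The interaction contrasts ask whether *bcl7a bcl7b* changed a member in a *brm* background as it did in WT. With *brm-1*, 9 of 10 members departed from the sum of both changes, where 31.2% of all genes did. *CCD4* lay above the sum (1.59 ± 0.29, adjusted p = 0.000203), and *PSY*, *PDS*, *ZDS*, *LCYE*, *BCH1*, *VDE* and *LUT1* below it, with *LCYE* at -2.43 ± 0.41 (adjusted p = 0.000104). With *brm-3*, 6 of 10 departed, where 11.5% of all genes did, with *PSY*, *PDS*, *ZDS*, *LCYE* and *BCH1* below the sum, *BCH1* at -1.98 ± 0.37 (adjusted p = 0.000955). *BCH2* was also called with both alleles, above the sum (4.07 ± 0.75 with *brm-1* and 3.17 ± 0.75 with *brm-3*), but these values do not show how the mutations combine. Adding both falls to the WT level gives 0.242 normalized counts in *bcl7a bcl7b brm-1* and 0.891 in *bcl7a bcl7b brm-3*. These sums lie at about the value of 1 fragment or less, which the libraries hardly resolve. The triple mutants averaged 20.6 ± 6.66 and 17.0 ± 7.65 (SD, n = 3 each). *BCH2* averaged 20.6 ± 1.62 in *bcl7a bcl7b* (SD, n = 2), and 9.94 ± 3.25 in *brm-1* and 17.0 ± 10.9 in *brm-3* (SD, n = 3 each). For *LCYE* the sum gives 2088 and 1622 normalized counts, where the triple mutants with *brm-1* and *brm-3* averaged 394 ± 91.8 and 530.2 ± 180.6. For *PSY* it gives 5095 and 3811, where they averaged 1344 ± 261.9 and 1610 ± 68.2 (SD, n = 3 each). The median interaction over all genes was -0.25 with *brm-1* and -0.23 with *brm-3*, so the values below the sum are read against that shift. In these contrasts WT is the only group from the set with high sums. A departure from the sum and the difference in scale therefore cannot be told apart for any member.

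**Figure D4:**
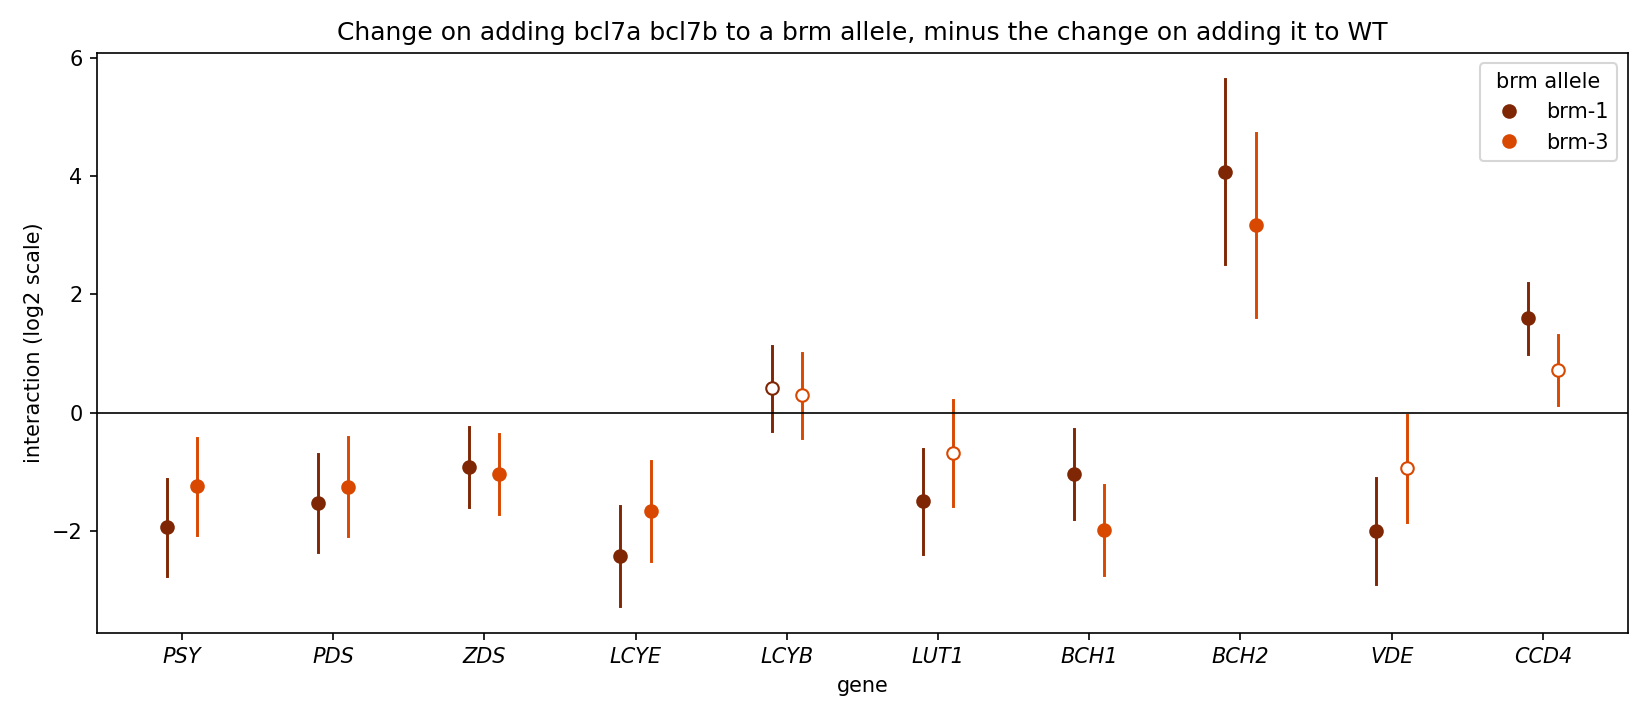
Interaction of *bcl7a bcl7b* with *brm-1* and with *brm-3* for each gene (vertical axis, log2 scale), with 95% confidence intervals from limma. A point is the change on adding *bcl7a bcl7b* to the *brm* allele minus the change on adding it to WT, and filled points passed both thresholds. *LCYE* and *PSY* lie below 0 with both alleles, and *BCH2* lies above 0, with its additive level at about the value of 1 fragment or less.

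Other genes of the pathway, listed from general knowledge, moved in both directions. Of 7 further carotenoid steps, 5 rose and 1 fell in *brm-1*, where 28.9% of all genes tested rose and 19.2% fell. *LUT5*, a beta-ring hydroxylase of the lutein branch, had 1151, 958 and 894 normalized counts in *brm-1* against 257, 250 and 128 in WT (log2 fold change 2.30 ± 0.30, adjusted p = 1.73e-06). *IM*, the plastid terminal oxidase that serves the desaturases, rose by 1.14 ± 0.21 and *CYP97B3*, a cytochrome P450 related to *LUT5*, by 1.11 ± 0.26 on the log2 scale. *ZEP*, zeaxanthin epoxidase, which works against *VDE*, had 575, 468.5 and 329 in *brm-1*, far below the 1951, 1555 and 1657 in WT (-1.94 ± 0.21, adjusted p = 1.09e-07). *ZEP* also fell and *LUT5* and *IM* also rose in *bcl7a bcl7b brm-1*, *bcl7a bcl7b brm-3*, *brm-3* and *bcl7a bcl7b*. The *ZEP* to *VDE* ratio was 1.94, 1.46 and 1.28 in *brm-1*, against 16.1, 6.41 and 5.91 in WT, without overlap but with WT replicate 1 far above the other WT libraries.

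Of 10 genes that supply the precursors, 4 rose and 2 fell in *brm-1*, not far from the 28.9% and 19.2% of all genes. The list holds genes of the MEP pathway and, after it, *IPP1*, *IPP2* and *GGPS11*. *ISPD*, an early enzyme of the MEP pathway, rose most, with 1010, 1114 and 697.5 normalized counts in *brm-1* against 62.9, 348 and 80.7 in WT (2.92 ± 0.38, adjusted p = 1.59e-06). *DXR* and *ISPF*, also in its early and middle part, rose by 1.56 ± 0.26 and 1.33 ± 0.23. The last enzymes of the MEP pathway, *HDR* and *HDS*, fell, *HDR* with 2114, 1731 and 1628 in *brm-1* against 3111, 2891 and 3355 in WT (-0.78 ± 0.14, adjusted p = 6.07e-05) and *HDS* at -0.69 ± 0.19. *HDR* fell and *DXR* rose in all 5 genotypes.

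Among 8 cleavage dioxygenases other than *CCD4*, 7 were tested, and 2 rose and 1 fell in *brm-1*, again near the shares of all genes (28.9% and 19.2%). *NCED3*, a rate-limiting enzyme of abscisic acid synthesis that is induced by drought, had 23.7, 17.4 and 15.6 normalized counts in *brm-1* against 198, 276 and 475 in WT (-3.92 ± 0.97, adjusted p = 0.0019). Its spread was large elsewhere: it had 3418, 25.1 and 3438 in *bcl7a bcl7b*, so that replicate 2 was far below the near-identical pair. *CCD7*, a strigolactone enzyme, and *NCED2* were listed at 0 in every WT library and at 4.09 to 11.5 and 8.26 to 14.9 in *brm-1*, and no fold is given. *NCED6* was listed at 0 throughout. Of 6 regulators, 1 rose and 1 fell in *brm-1*, no larger a share than of all genes. *HY5*, a light-signalling transcription factor, rose in *brm-1* by 1.38 ± 0.32 (adjusted p = 0.00127), and *RAP2.2* fell (-0.81 ± 0.22, adjusted p = 0.00428), a direction that it did not keep in *bcl7a bcl7b brm-1*, where it had 5124, 5056 and 5155 against 3960, 4006 and 3905 in WT.

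Over the 23 samples of the model, the members fell into opposed profiles. *PSY* was most like *LCYE* (Pearson r = 0.89) and least like *BCH2* (r = -0.92), and *LUT1* was least like *CCD4* (r = -0.88). Among all genes tested, *CCD4* was most like *LHB1B2* (r = 0.99) and *BCH2* most like *CAB2* (r = 0.96), both of which encode chlorophyll a/b-binding proteins of the light-harvesting antenna. *LUT1* was most like *ACR11* (r = 0.95), *LCYE* most like *EGY1*, a plastid protease (r = 0.94), and *PSY* most like AT5G46580 (r = 0.93). These correlations are descriptions in which samples share genotypes and the split in scale. Within the 14 samples of the 5 genotypes, r was 0.95 for *CCD4* with *LHB1B2* and 0.53 for *BCH2* with *CAB2*, and within the 9 samples of *bcl7b*, *bcl7a* and WT it was 0.41 and -0.16. *PDS*, *ZDS*, *BCH1* and *VDE* were least tied to the other members, with highest r of 0.55, 0.65, 0.55 and 0.49, and their nearest genes were AT1G63300 (r = 0.84), *ALN* (r = 0.85), AT1G66820 (r = 0.87) and *ATCSLA09* (r = 0.83). *LCYB* was most like *BEH4* (r = 0.91).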

How the data were processed

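The file holds normalized counts per gene for 24 libraries. The authors quantified reads with Salmon 1.5.1 against AtRTD2 and applied DESeq2 size factors. Their methods also name TPM inputs, so the deposited normalized signal was not treated as read counts, and whole reads were not recovered. Depth was estimated from the lowest value at which a library's values gather (1 fragment) and is approximate. Values were analysed as log2(value + 1) in R 4.3.3 with limma 3.58.1 (lmFit, eBayes with trend) over 8 genotypes, 23 samples and 21596 genes, in 17 comparisons, with Benjamini-Hochberg adjustment over all genes. On simulated data with 200 genes changed by 3 on the log2 scale, 92% were recovered for *bcl7a bcl7b* against WT and 93% for *brm-1* against WT among 21596 genes. Unchanged genes called were 4 and 8. A change of 3 is larger than most member changes reported here, and recovery of smaller changes was not measured. Named genes were all 10 members, up to 3 per list and direction past the thresholds in *brm-1* against WT, the most correlated gene, and the mutated genes. Alternatives were other pseudocounts, filters, scalings, models and single libraries left out. Members and lists were chosen with earlier results of these data known. Coordinates are TAIR10.1, and the labels name TAIR10. CRU3 and *NCED6* were named after their values were seen.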

Additional observations from a re-analysis of the deposited data

Results flagged for a closer look

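The 15 interaction values past the thresholds are the results in which an effect of *bcl7a bcl7b* differed between backgrounds by a test of the difference itself (limma, *brm* background against WT background). With *brm-1* the values were 4.07 for *BCH2* and 1.59 for *CCD4*, and -1.94 for *PSY*, -1.53 for *PDS*, -0.92 for *ZDS*, -2.43 for *LCYE*, -1.04 for *BCH1*, -2.01 for *VDE* and -1.50 for *LUT1*. With *brm-3* they were 3.17 for *BCH2*, and -1.24 for *PSY*, -1.25 for *PDS*, -1.04 for *ZDS*, -1.66 for *LCYE* and -1.98 for *BCH1*. For *BCH2* the sum of both falls lies at 0.242 and 0.891 normalized counts, at about the value of 1 fragment or less. The triple mutants with *brm-1* and *brm-3* averaged 20.6 ± 6.66 and 17.0 ± 7.65 (SD, n = 3 each), so the *BCH2* values do not show how the mutations combine. All 15 interaction values compare libraries from both scale sets, with WT the only group from the set with high sums. A differing effect of *bcl7a bcl7b* and the difference in scale therefore cannot be told apart in them. Rescaling every library to the same total moved the median interaction of all genes to -1.08 with *brm-1* and -1.03 with *brm-3*, and the *CCD4* value with *brm-1* to 0.71 (adjusted p = 0.0554, over alternatives 4.78e-05 to 0.0554).

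With *brm-1*, the calls of *PSY*, *PDS*, *LCYE*, *VDE* and *LUT1* held in all 23 alternatives. Those of *ZDS* and *BCH1* were lost when any of 7 libraries was left out (adjusted p = 0.0507 to 0.0927 and 0.0511 to 0.0988). With *brm-3*, the call of *BCH1* held in all 23 and that of *LCYE* was lost only with the compared groups fitted alone (adjusted p = 0.0503), while those of *PDS*, *ZDS* and *PSY* were lost without any of 9, 8 and 7 libraries (adjusted p = 0.0554 to 0.107, 0.0569 to 0.101 and 0.0619 to 0.0973).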

How the results depend on the processing

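Of the 34 calls of members against WT, 21 held in every alternative, among them every call of *PSY*, *LCYE*, *BCH2*, *LUT1* and *CCD4* in the 4 *brm* genotypes. Of the 32 calls in other comparisons, 17 did. In *bcl7a bcl7b* against WT, 1 member in place of 7 passed with these groups fitted alone, and in the interaction with *brm-3*, 1 in place of 6. Rescaling to the same total, which moved the median of all genes in *brm-1* against WT from 0.36 to 1.15, gave 1 call in place of 0 in *bcl7b* against WT (*LCYE*, 1.22), 2 in place of 4 in *bcl7a bcl7b brm-3* against *bcl7a bcl7b*, and 7 in place of 3 in the additivity contrast. Members called against WT were then 9 in *bcl7a bcl7b*, *brm-3* and *brm-1* each and 8 in each triple mutant, in place of 7, 6, 8, 6 (with *brm-3*) and 7 (with *brm-1*), as *LCYB* was lost in the *brm* genotypes and *PDS*, *ZDS*, *BCH1* or *VDE* gained. Rescaling to the same total also changed the sign of *VDE* against WT. In *bcl7a bcl7b brm-3* it went from -0.29, not called, to 0.72 (adjusted p = 0.0382, limma). In *bcl7a bcl7b brm-1* the call was lost, at 0.0334 (adjusted p = 0.931). After this rescaling, the share of all calls that were higher was 88.7% in *bcl7a bcl7b brm-1*, 85.8% in *bcl7a bcl7b brm-3*, 87.9% in the *brm-1* null, 92.4% in *brm-3* and 96.8% in *bcl7a bcl7b* against WT, in place of 59.6%, 57.5%, 60.1%, 58.7% and 54.0%. That share was 12.1% and 6.58% in the interactions with *brm-1* and *brm-3*, in place of 47.0% and 45.2%. It was 93.5% in *bcl7b* against WT and 93.3% for additivity, in place of 72.4% and 50.4%. Quantile normalization gave 5 calls in place of 3 in *bcl7a bcl7b brm-1* against *bcl7a bcl7b* and 4 in place of 2 in *brm-1* against *bcl7a bcl7b*. With all 24 libraries as deposited, *bcl7a bcl7b brm-1* against *bcl7a bcl7b* had 5 calls in place of 3 and *brm-3* against *bcl7a bcl7b* 1 in place of 0, and the replicate block with all 24 libraries gave the same 5 and 1. It gave the same counts as the model without it in all 7 comparisons with WT (0, 0, 7, 6, 8, 6 and 7 for *bcl7a*, *bcl7b*, *bcl7a bcl7b*, *brm-3*, *brm-1* and the triple mutants with *brm-3* and *brm-1*). The numbers do not pair the libraries, since same-numbered libraries did not deviate together (median r = 0.0047 over 84 pairs, 1 above 0.1). The causes of these shifts were not tested.

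Leaving out single libraries, counts ranged from 0 to 1 in *bcl7b* against WT (1 without WT replicate 2), 7 to 8 in *bcl7a bcl7b*, 6 to 8 in *brm-3*, 6 to 9 in *brm-1*, 6 to 8 in *bcl7a bcl7b brm-3* and 6 to 7 in *bcl7a bcl7b brm-1* against WT. The ranges were 1 to 3 for *bcl7a bcl7b brm-3* against *brm-3*, 2 to 4 against *bcl7a bcl7b*, 1 to 3 for *brm-1* against *bcl7a bcl7b*, 1 to 4 for additivity, 3 to 6 for the interaction with *brm-3* and 7 to 9 with *brm-1*. Without its replicate 2, *bcl7a bcl7b* had 1 sample, assumed to vary like the other groups. Depth limits *BCH2* most, at a lowest value of 6.20 normalized counts.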
